A study of Mus musculus with 7 samples.

Results

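Core regions are the stretches of open chromatin that all 7 deposited peak lists of this study have in common. They were found by merging the peaks of the 7 lists on chromosomes 1 to 19 wherever peaks overlapped by at least 1 bp, and keeping the merged regions with a peak from every list, so that the members were chosen by the peak calls themselves. The 60968 autosomal peaks gave 24734 merged regions, of which 1270 were called in all 7 lists (5.13%). A further 11536 regions were called in 2 to 6 lists and 11928 in 1 list. The lists come from ATAC-seq, which marks accessible DNA by the places where a transposase can cut it and insert adapters, applied to CD15+ neural progenitor cells (NPCs) sorted by FACS from the dorsal telencephalon, the embryonic source of the cerebral cortex, at E14.5.

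The libraries comprise 3 from wild-type embryos and 4 from L3mbtl3 knockout embryos (genotype L3mbtl3 -/-), all of the outbred CD-1 strain and all labelled E14.5 in their titles, where a separate age field gives embryonic day 14. L3mbtl3 encodes a chromatin reader of the malignant brain tumour (MBT) domain family, named in the study's title as an interactor of Polycomb repressive complex 1. The growth protocol, which is the same for every library, also mentions heterozygous cells, and no library carries that label. How the knockout allele was made, and whether each library came from 1 embryo or several, is not given in the sources used here, so the spread between libraries may be partly technical. Knockout library 3 had the shortest list (3285 autosomal peaks) and knockout library 4 the longest (16789).

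Accessible DNA in progenitors falls into promoters, which tend to be open in many cell types, and distal elements such as enhancers and insulators, which can lie far from the gene they act on. Many housekeeping promoters lack a TATA box and carry instead the CCAAT box, bound by the trimeric factor NF-Y, or the ACTAC-type element bound by the zinc-finger protein ZNF143 (Zfp143 in the mouse). Long genes for neuronal adhesion and synapse formation, and the gene-poor stretches around developmental regulators, hold many distal elements in neural cells.

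The sequences below are the 200 bases directly before the transcript start of 8 genes with a core region at the promoter, shown because they carry the letters that the promoter results turn on. They came from the RefSeq promoter table of GRCm38.p6, and each reads 5′ to 3′ on the strand of its gene. Capitals mark CCAAT or its reverse complement ATTGG, and a loose form of the ZNF143 element, which reads ACTAC, 4 free bases and CCC, or its reverse complement. Mcm3 (chr1:20820313-20820512, minus strand), a subunit of the replicative helicase, and the zinc-finger gene Zfp958 (chr8:4612970-4613169, plus strand) were taken as promoters of genes named from the gene lists. The other 6 had the highest within-list fold among the 69 core promoters whose 200 bases lie outside every gene span, counting each region only for 1 gene. They belong to Cldnd1, a claudin-domain gene (chr16:58727710-58727909, plus strand), Vps41, of vesicle tethering (chr13:18717092-18717291, plus strand), Top2b, topoisomerase II beta (chr14:16365006-16365205, plus strand), the zinc-finger gene Zik1 (chr7:10495382-10495581, minus strand), Cox7c, a cytochrome c oxidase subunit (chr13:86046796-86046995, minus strand), and Pdcd10, of endothelial junction signalling (chr3:75556853-75557052, minus strand).
Mcm3: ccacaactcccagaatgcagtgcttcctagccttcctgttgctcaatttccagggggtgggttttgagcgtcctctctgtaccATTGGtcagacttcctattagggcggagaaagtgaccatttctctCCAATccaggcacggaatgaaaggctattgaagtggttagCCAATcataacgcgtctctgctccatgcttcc
Zfp958: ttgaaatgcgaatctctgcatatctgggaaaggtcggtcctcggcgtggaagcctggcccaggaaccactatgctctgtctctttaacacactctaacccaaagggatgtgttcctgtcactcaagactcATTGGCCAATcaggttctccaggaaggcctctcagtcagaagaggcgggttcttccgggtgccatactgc
Cldnd1: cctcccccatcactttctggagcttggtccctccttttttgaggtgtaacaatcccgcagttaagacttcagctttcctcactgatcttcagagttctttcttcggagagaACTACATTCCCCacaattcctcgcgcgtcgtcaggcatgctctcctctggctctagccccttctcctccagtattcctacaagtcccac
Vps41: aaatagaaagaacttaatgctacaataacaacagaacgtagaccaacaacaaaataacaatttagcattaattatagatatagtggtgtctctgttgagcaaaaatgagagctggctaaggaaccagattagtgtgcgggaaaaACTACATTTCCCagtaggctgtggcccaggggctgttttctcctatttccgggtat
Top2b: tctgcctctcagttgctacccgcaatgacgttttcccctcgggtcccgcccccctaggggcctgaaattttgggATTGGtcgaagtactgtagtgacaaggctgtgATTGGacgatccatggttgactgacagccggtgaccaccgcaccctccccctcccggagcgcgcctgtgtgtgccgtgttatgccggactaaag
Zik1: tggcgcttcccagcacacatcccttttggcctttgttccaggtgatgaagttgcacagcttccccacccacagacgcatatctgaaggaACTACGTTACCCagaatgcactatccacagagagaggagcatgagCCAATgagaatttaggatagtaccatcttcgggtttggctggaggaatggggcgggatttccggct
Cox7c: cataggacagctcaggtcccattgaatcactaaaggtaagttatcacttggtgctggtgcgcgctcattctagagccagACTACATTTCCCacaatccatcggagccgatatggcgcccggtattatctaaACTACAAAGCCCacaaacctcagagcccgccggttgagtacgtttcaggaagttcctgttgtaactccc
Pdcd10: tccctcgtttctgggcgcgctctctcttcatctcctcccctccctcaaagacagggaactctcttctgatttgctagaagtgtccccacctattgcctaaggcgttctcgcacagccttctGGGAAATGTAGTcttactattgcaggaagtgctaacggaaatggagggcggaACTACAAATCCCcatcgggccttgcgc

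In these sequences Mcm3 carried 3 CCAAT boxes, at 30, 70 and 115 bases before its start. Zfp958 carried a pair that abut on opposite strands, at 63 and 68 bases. Top2b had boxes at 92 and 124 bases and Zik1 had 1 at 64 bases beside an ACTAC element. Cldnd1, Vps41, Cox7c and Pdcd10 had no CCAAT in these 200 bases and held 1, 1, 2 and 2 ACTAC elements. Of the 69 promoters from which these came, 44 had a CCAAT in the same stretch.

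In the Mcm3 promoter region (chr1:20820296-20820498) the wild-type lists called 124, 172 and 88 bases and the knockout lists 144, 133, 139 and 194. The Zfp958 promoter region (chr8:4613006-4613238) had 145, 144 and 169 called bases in wild-type and 194, 164, 126 and 219 in knockout lists. The Cldnd1 promoter region (chr16:58727740-58728035) had 198, 273 and 86 bases in wild-type and 205, 265, 111 and 211 in knockout lists. The genotypes overlapped at all 3 promoters, and wild-type library 3 or knockout library 3 gave the shortest call at each.

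Across all promoters, core regions were the class in which CCAAT was most frequent. A window of 250 bases before to 50 after each transcript start was taken from the same table, which holds no starts on chromosome 18 in these data, giving 20085 windows. Core regions overlapped 203 windows of 190 genes, through 168 regions. CCAAT on either strand was present in 76.4% of them (155 of 203, exact binomial 95% interval 69.9 to 82.0). The share was 59.2% (57.1 to 61.2) for windows with a region called in 2 to 6 lists, 45.6% for regions called in 1 list and 34.0% for windows with no region. It was 38.1% over all windows. From 2 to 6 lists the shares were 52.2, 59.3, 58.8, 65.3 and 69.5%. Here and below, intervals treat windows or regions as independent and cover counting error only, and no test was run between classes of regions.

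Core windows also held more copies of the box. They averaged 1.69 copies per window, against 1.15 for regions called in 2 to 6 lists and 0.453 where no region was called. At least 2 copies were present in 50.2% of core windows and in 33.3% of windows with a region called in 2 to 6 lists. Between 40 and 120 bases before the start, where CCAAT boxes of housekeeping promoters usually sit, 53.2% of core windows and 38.5% of the windows called in 2 to 6 lists had a copy. The excess was not confined to this interval. At 225 to 250 bases before the start there were 15.3 against 5.86 copies per 100 windows, and at 50 to 75 bases 25.1 against 19.9. Copies lay at a median of 100 bases before the start in core windows and 82 for 2 to 6 lists. Core region midpoints lay before the transcript start in 93.1% of windows, at a median of 106 bases before it. Where CCAAT was present, the nearest copy lay a median of 31 bases from that midpoint (interquartile range 9 to 71.5).

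**Figure D1:**
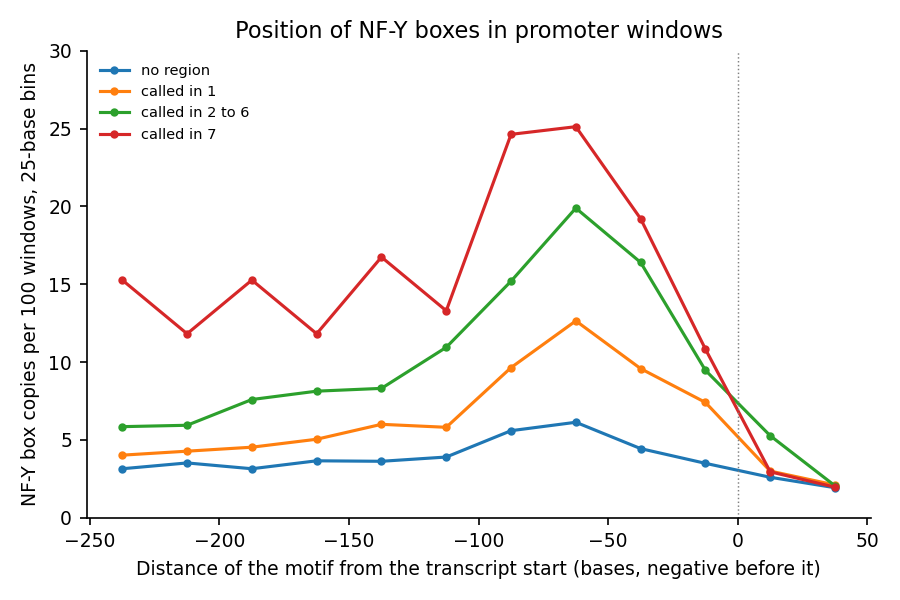
Copies of the NF-Y box (CCAAT on either strand) per 100 promoter windows in 25-base bins (y axis) by distance from the transcript start in bases (x axis, negative before it), for windows with no region, with a region called in 1 list, in 2 to 6 lists, and in all 7 lists. The core line is the highest in each bin before the start, and the 4 lines meet in the last bin after it.

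The ZNF143 element followed the same order. The loose form printed above, on either strand, was found in 19.7% of core windows (14.47 to 25.9), 12.9% of windows with a region called in 2 to 6 lists, 8.18% of those called in 1 list and 1.88% of those with no region, with 3.78% over all windows. This form was searched only after the printed sequences had been seen, and those promoters are among the core windows counted. Its share in core windows is therefore not independent of the choice of motif. A stricter ZNF143 element with every base specified gave 3.45% in core windows (7 of 203), 1.74% for 2 to 6 lists and 0.149% without a region, with 0.443% over all windows. Those 7 windows belong to Arid4b and Ggps1, whose windows overlap on chromosome 13, to Chchd3, Iftap, Rab3c, Ubxn4 and Zranb3. The Arid4b and Ggps1 windows, which share bases, each held 3 CCAAT boxes as well. At least 1 of CCAAT and the loose ZNF143 form was present in 85.2% of core windows, against 66.9% for 2 to 6 lists and 35.2% without a region. Over all windows it was 40.5%, and the same limit on the loose form holds here. Both were present in 22 core windows, CCAAT alone in 133, the ZNF143 form alone in 18 and neither in 30.

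The other promoter motifs searched are given beside these. The GC box GGGCGG, bound by Sp1, was in 56.7% of core windows (49.5 to 63.6), 65.04% for 2 to 6 lists and 69.5% for 1 list, against 42.2% where no region was called and 47.0% over all windows. The Ets letters CCGGAAG were in 23.6, 20.7 and 25.8% of the same 3 classes, and 11.9% of all windows. TATAAA was in 5.42% of core windows and 14.51% of windows with no region, with 12.7% over all. The E-box CANNTG, read by bHLH factors, was in 59.6% of core windows and 59.2% for 2 to 6 lists, and the proneural type CAGCTG, which is one form of CANNTG, in 10.8 and 13.01%. Over all windows the E-box shares were 68.7 and 15.6%. The CRE TGACGTCA was in 4.43 and 4.96%, a partial CTCF motif in 1.97 and 3.35%, the NRF1 palindrome in 2.96 and 2.01%, and the YY1 motif in 1.48 and 2.37% of core windows and windows with 2 to 6 lists. Over all windows the CRE was present in 462 of 20085, and the other three in 2.39, 1.34 and 1.18%.

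**Figure D2:**
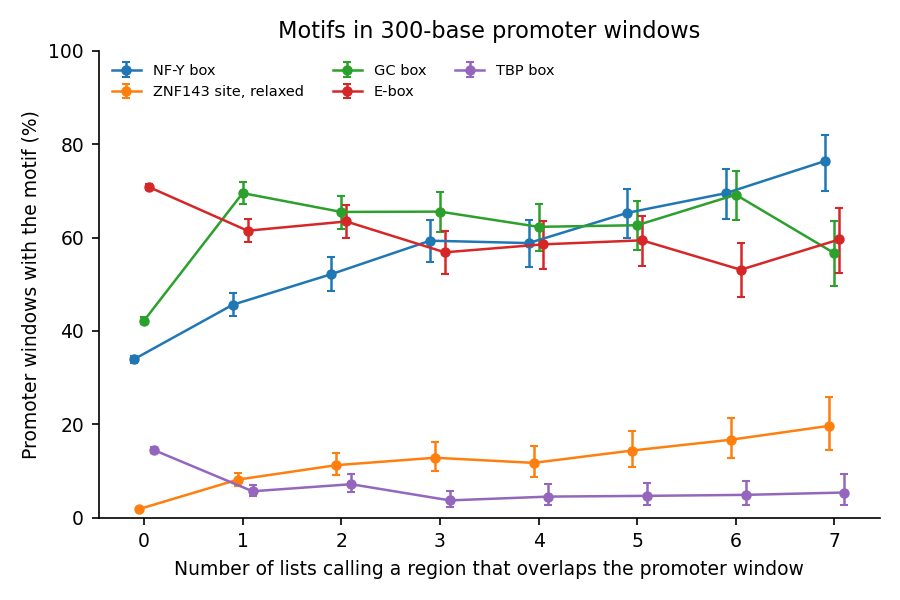
Share of 300-base promoter windows with each motif (y axis, %) by the number of lists that called a region overlapping the window (x axis, 0 to 7), with exact binomial 95% intervals. The NF-Y box climbs from 34.0% to 76.4% and the relaxed ZNF143 site from 1.88% to 19.7%, while the GC box ends at 56.7% after 69.5% at 1 list.

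Base composition also differed between the classes. Median GC content was 56.7% in core windows, 60% for 2 to 6 lists, 62% for 1 list and 55.3% for windows with no region. By GC class, the CCAAT share in core windows and in windows with 2 to 6 lists was 60% against 56.4% under 50% GC, 80% against 63.8% at 50 to 55%, 83.1% against 63.2% at 55 to 60%, 72.2% against 61.5% at 60 to 65%, and 77.3% against 51.8% at 65% GC or more. The first of these rests on 30 core windows and the last on 22. The part of base composition in the CCAAT shares was not tested. The other 29 orderings of the same 5 letters had a median share of 33.5% in core windows. That median was lower for 2 to 6 lists (27.4%), for 1 list (24.98%) and over all windows (31.4%). The highest of these orderings in core windows, CAATC at 66.0% against 49.4% for 2 to 6 lists, overlaps CCAATC. Of all 2080 words of 6 bases (a word and its reverse complement counted as 1), CCAATC had the largest excess in core windows, at 55.7% against 38.3% for 2 to 6 lists and 18.2% of all windows, and the next 4 words overlap CCAAT too. The largest deficit was that of CAGCGC, at 13.8% against 29.5%, with 22.1% of all windows.

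The core windows are nearly the same in each library by the rule. The windows of each library's other peaks had CCAAT in 56.4 to 63.8% of cases over the 7 libraries. Among the core windows, those in the upper part by within-list fold had CCAAT in 80.2%, and the remaining 102 windows in 72.5%.

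Promoters were nonetheless the smaller share of the core. Placed against the spans of protein-coding genes, 206 core regions lay within 1 kb of a gene end (16.2%, 14.2 to 18.4), 427 inside a gene away from its ends (33.6%, 31.0 to 36.3), 221 outside genes within 100 kb (17.4%, 15.4 to 19.6) and 416 more than 100 kb from any gene (32.8%, 30.2 to 35.4). In regions called in 2 to 6 lists the same shares were 19.9, 34.0, 21.1 and 25.04%. The share beyond 100 kb was 22.2% for regions called in 1 list and 23.03, 24.6, 25.4, 26.002, 29.9 and 32.8% for 2 to 7 lists, a rise at each step. The share at gene ends had no such order: it was 16.3% for 1 list, between 19.3 and 21.0% for 2 to 6 lists and 16.2% for 7. A transcript start within 1 kb was found for 14.3% of core regions (175 of 1226 outside chromosome 18) and 18.8% of regions called in 2 to 6 lists.

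**Figure D3:**
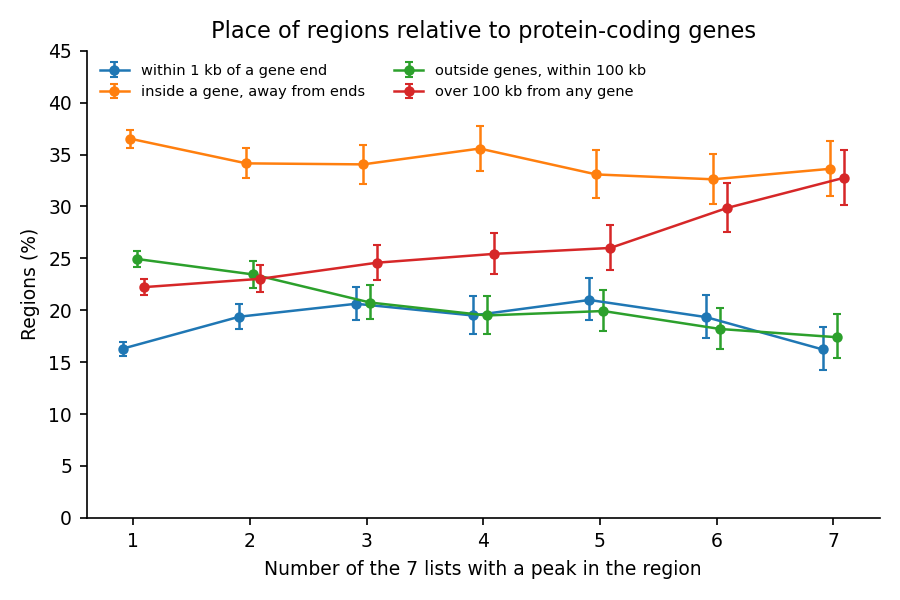
Share of merged regions in each of 4 places relative to protein-coding genes (y axis, %) by the number of lists that called the region (x axis), with exact binomial 95% intervals. The share over 100 kb from any gene rises from 22.2% at 1 list to 32.8% at 7, and the share at gene ends is 16.3% at 1 list and 16.2% at 7.

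The surroundings of core regions were correspondingly gene-poor. A median of 3 protein-coding genes lay within 500 kb of a core region, against 5 for regions called in 2 to 6 lists and 6 for those called in 1. No gene lay within 500 kb of 110 core regions (8.66%), against 6.27% for 2 to 6 lists. Core regions inside a gene sat in longer genes, with a median host length of 387 kb against 249 kb, and 39.6% of them against 27.3% sat in a gene over 500 kb. By chromosome, the share beyond 100 kb was higher in the core than in regions called in 2 to 6 lists on 17 of 19 chromosomes, and the share at gene ends was lower on 12 of 19. Chromosome 16 had the densest core, at 0.810 regions per Mb, followed by chromosome 3 at 0.675. Chromosomes 11 and 7, rich in genes, had 0.303 and 0.337.

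**Figure D4:**
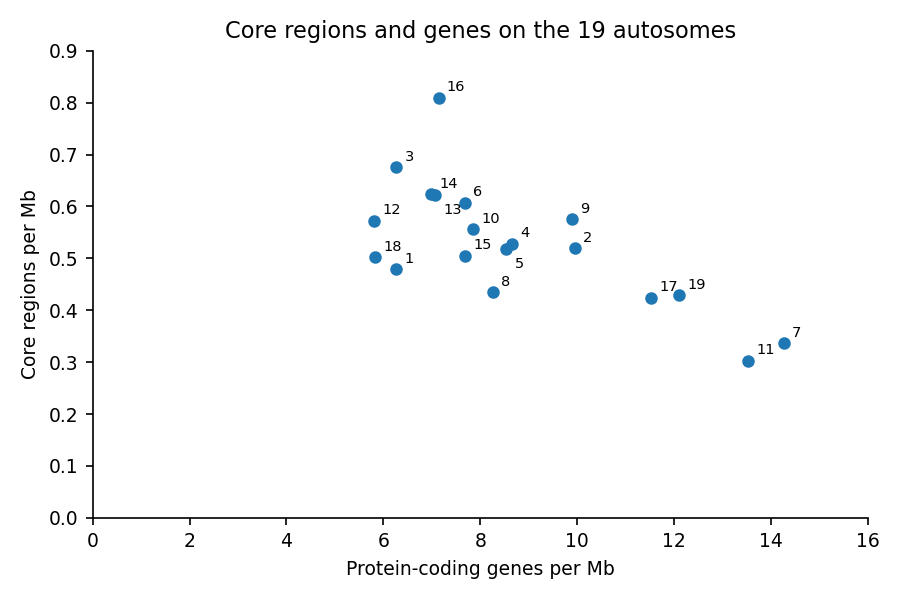
Core regions per Mb (y axis) against protein-coding genes per Mb (x axis) for the 19 autosomes, each point labelled with its chromosome. Chromosomes 11 and 7 lie lowest, at 0.303 and 0.337 core regions per Mb, and chromosome 16 highest at 0.810.

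Over the 19 chromosomes, core density and gene density had Pearson r = −0.708 and Spearman rho = −0.584, where the density of regions called in 2 to 6 lists gave −0.525 and −0.484. Without chromosome 11 the first r was −0.630. The chromosomes share all 7 libraries, so these are descriptions with n = 19.

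Core regions were also counted by gene. Of 20665 autosomal protein-coding genes, 1083 had a core region in the span or within 50 kb on either side (5.24%). Cntn5, a contactin, had 7, Lsamp, the limbic adhesion molecule, had 6 and Macrod2 had 5. Cadm2, a synaptic adhesion molecule, Dlg2, a postsynaptic scaffold, and the protocadherin Pcdh9 had 4 each. The other 4 of the 10 genes with most core regions, 2210408I21Rik, Aldh1a1, Astn2 and Cadps2, had 3 each. Length goes with these counts: genes over 500 kb held a core region in their span in 42.6% of cases (92 of 216), and genes under 10 kb in 0.531% (39 of 7342). Per Mb of span the order differed, with 0.937 core regions per Mb in genes over 500 kb, 0.605 at 200 to 500 kb, 0.480 at 50 to 200 kb, 0.588 at 10 to 50 kb and 1.26 under 10 kb.

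In the neurexin, neuroligin and Cntnap group, the pre- and postsynaptic partners that build synapses, 5 of 16 genes had a core region (31.2%, against 5.24% of all genes), with 13 regions in all. Nlgn1, Nrxn3 and Cntnap2 had 3 each, and none of the 13 lay at an end of these genes. The median length of this group is 481 kb, against 17.5 kb for all autosomal genes. The first Nlgn1 region (chr3:25884910-25885288, inside the gene) had 293, 299 and 169 called bases in the wild-type lists and 193, 297, 143 and 308 in the knockout lists. Knockout library 3 was the lowest and knockout library 4 the highest, and the genotypes overlapped.

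The semaphorin, ephrin, Slit and netrin group of axon guidance ligands and receptors had a core region in the wider window at 11 of 65 genes (16.9%, against 5.24% of all genes). None had one at an end, against 1.18% of all genes, so this count lies within 1 gene of that share. The median length of the group is 46.3 kb, against 17.5 kb for all autosomal genes. Robo1, a Slit receptor, had 3, and Robo2, Epha5 and Epha6 had 2 each, all inside the gene. At the first of these (chr16:72222060-72222407 in Robo1) the stretch called in all 7 lists was 13 bp, whereas at the region chr16:72699155-72699756 it was 368 bp.

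Of 24 radial glia and neural stem cell genes, which mark the sorted cells, 5 had a core region in the wider window (20.8%, against 5.24% of all genes) and 0 at an end (against 1.18%, within 1 gene of that share). Fut9, which encodes a fucosyltransferase that makes the CD15 carbohydrate used for the sort, had 1 inside the gene (chr4:25627338-25627702), with 350, 204 and 111 called bases in wild-type and 292, 296, 187 and 197 in knockout lists. Gli3, the hedgehog-pathway repressor that patterns the dorsal telencephalon, had 1 inside the gene (chr13:15543732-15544128), where no base was called in more than 6 lists. Those counted for Sox9 and Fabp7 lay outside the genes, that of Sox9 at 23.4 kb (chr11:112811186-112811785). That of Fabp7 lay 33975 bp away (chr10:57822425-57822812), and its nearest gene was Smpdl3a at 10.6 kb. The genotypes overlapped at Fut9, where wild-type library 1 gave the longest call and wild-type library 3 the shortest.

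None of the 16 proneural and neurogenic bHLH genes and none of the 10 intermediate progenitor genes had a core region in the wider window. The share of all genes is 5.24%, so a count of 0 in lists of this size lies within 1 gene of it, and the median lengths are 3.16 and 5.50 kb against 17.5 kb for all genes. Of 17 autosomal excitatory neuron genes 5 had a core region in the wider window (29.4%), in a list with a median length of 163 kb. There were 2 in Sox5, 1 each in Foxp2 and Mef2c and 1 at an end of Fezf2, the layer V fate regulator (chr14:12337805-12338678). The region counted for Tbr1 lay outside the gene, at 23.2 kb (chr2:61837276-61837628), and no base of it was called in more than 6 lists. The Fezf2 region had 249, 128 and 558 called bases in wild-type and 539, 285, 132 and 448 in knockout lists, and no base of it was called in more than 5 lists. It therefore joins the core through overlapping peaks rather than through 1 shared stretch.

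Lists for other cell types are set against the same shares of all genes, 5.24% in the wider window and 1.18% at an end. The 8 endothelial and 9 autosomal microglia and blood genes had 0 core regions in the wider window, and of 8 meningeal genes Dcn had 1 (12.5%). Each of these counts lies within 1 gene of the share of all genes. The single gene of the ventral telencephalon and interneuron list with any, Gad2, has its 2 regions inside the neighbouring Myo3a. Both are among the regions of nearly constant width described below, with ratios of longest to shortest call of 1.005 and 1.002. Hox genes (39), keratins (109) and PRC2 genes (10 autosomal) had 0. Of 25 autosomal PRC1 and MBT domain genes, L3mbtl4, Phc1 and Sfmbt2 had 1 each in the wider window (12%). Those of L3mbtl4 and Sfmbt2 lay inside the genes. That of Phc1 lay 8700 bp outside it, at an end of M6pr (chr6:122308484-122309031), with a stretch of 3 bp called in all 7 lists. L3mbtl3 itself (chromosome 10, 26274461 to 26376036) had no core region within 50 kb, the nearest lying at 150 kb (chr10:26525900-26526232). The same counts over genes of this length or neighbourhood were not tested.

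A core region within 1 kb of an end was found for 243 of 20665 autosomal genes (1.18%). Zinc-finger genes of the Zfp series had 8 of 388 (2.06%): Zfp119a, Zfp143, Zfp174, Zfp691, Zfp869, Zfp958, Zfp960 and Zfp971. Zfp143 is the mouse gene for the factor that binds the ACTAC element. In the Zfp143 region (chr7:110061336-110061756) the wild-type lists called 118, 315 and 135 bases and the knockout lists 156, 309, 193 and 209. Cell cycle genes had 1 of 19 (Mcm3), splicing genes 1 of 22 (Hnrnpc, whose region also lies at Rpgrip1), cytosolic ribosomal proteins 1 of 76 (Rpl30), and mitochondrial ribosomal proteins 0 of 78 and proteasome subunits 0 of 38. Olfactory and vomeronasal receptors had 0 of 1458. Cilia and centrosome genes, a group added after these results were seen, had 5 of 75 (6.67%): Cep57, Cep128, Haus6, Ift27 and Tctn3. The Cep128 region (chr12:91384384-91384602), which had the highest fold percentile of all core promoter regions (99.6), had 163, 190 and 162 called bases in wild-type and 158, 156, 128 and 213 in knockout lists.

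Of the 206 core regions at gene ends, 37 touched ends of 2 different genes and 169 touched 1 end. Core regions at gene ends were narrower than the rest, with a median width of 321.5 bp against 412, 406 and 420.5 bp inside genes, within 100 kb and beyond 100 kb. Their median within-list fold percentile was 84.9, against 78.6, 79.3 and 83.0. Among other gene types, 133 core regions (10.5%) touched a long noncoding RNA gene, against 12.03% for 2 to 6 lists, 2 touched miRNA genes (Mir344 and Mir5627) and 0 touched a tRNA gene, against 0.165% of regions called in 2 to 6 lists.

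The width of a merged core region had a median of 401.5 bp (interquartile range 301 to 554), against 345 bp for regions called in 6 lists and 246 bp for 2 to 6. A merged region grows with each list that joins, so this is fixed in part by the rule. In 1207 core regions (95.04%) at least 1 base was called in all 7 lists, and the shared stretch had a median of 109 bp. In 1240 regions every list had exactly 1 peak. The regions just outside the rule, 1484 called in 6 lists, lay at gene ends in 19.3% and beyond 100 kb in 29.9% of cases, and 942 of them (63.5%) lacked only knockout library 3. Without that library 2212 regions would be called in all remaining lists, with 17.8% at gene ends, 32.5% beyond 100 kb and CCAAT in 70.8% of their promoter windows.

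A library's own peaks were widest in the core. Median peak width in core regions was 248, 283 and 204 bp in the wild-type lists and 278, 258, 167 and 299.5 bp in the knockout lists. In regions called in 2 to 6 lists it was 159, 172 and 138 bp and 165, 156, 128 and 180.5 bp. The authors' fold enrichment in core peaks had medians between 4.77 and 5.92, against 4.20 to 4.76 for peaks in 2 to 6 lists. A core peak stood at a median percentile of 71.0 to 89.1 by fold within its own list. These values helped to place peaks in the core and are descriptions.

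**Figure D5:**
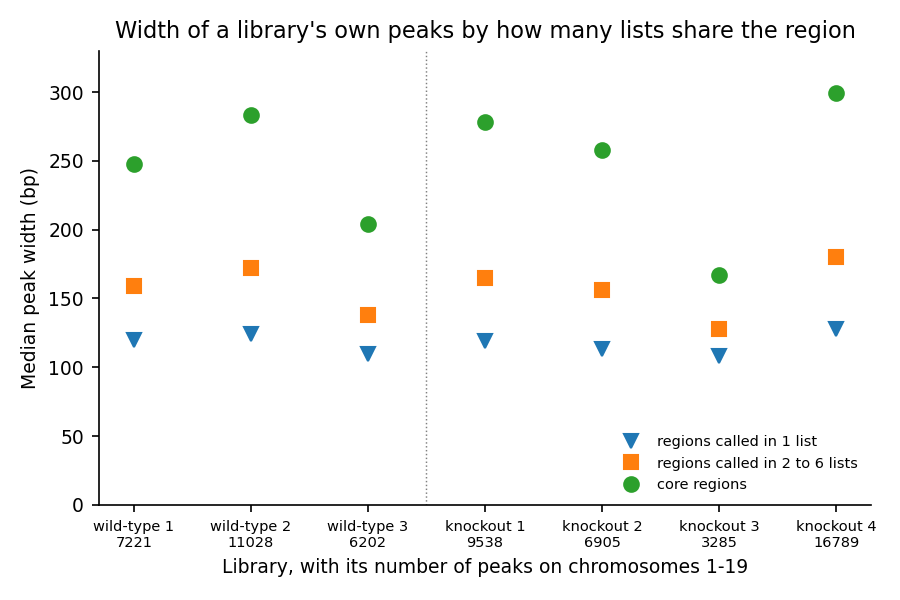
Median peak width in bp (y axis) in each of the 7 libraries (x axis, with the number of autosomal peaks under each name), for peaks in core regions, in regions called in 2 to 6 lists and in regions called in 1 list. Core peaks are the widest in each library, from 167 bp in knockout library 3 to 299.5 bp in knockout library 4.

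List length set how much of a library the core made up. The lists held 3285 to 16789 autosomal peaks, the read depth behind them is unknown, and core peaks made up 17.7, 11.6 and 20.5% of the wild-type lists and 13.5, 18.5, 39.0 and 7.60% of the knockout lists. The lowest and the highest of these belong to the longest and the shortest list.

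Membership was then checked in a list that was left out. Of the regions called in all 6 other lists, the left-out list called 93.5, 98.4 and 81.1% for the wild-type and 97.5, 93.1, 57.4 and 99.2% for the knockout libraries, a mean of 88.6% ± 15.1 (SD, n = 7). Of regions called in 5 of the 6 others the median was 79.3%, and for 4, 3, 2 and 1 of the 6 it was 58.6, 38.0, 20.03 and 6.56%. With every list cut to its 3285 strongest peaks by −log10 q, and by fold where q was tied, the first mean was 89.3% ± 5.47 (SD, n = 7). Knockout library 3, the shortest list, gave the lowest value, and gave 79.0% with lists of equal length.

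Regions called throughout 1 genotype were then followed in the other. Of 2882 regions called in all 3 wild-type lists, the 4 knockout lists called 90.4, 82.9, 49.7 and 95.5%, with 1270 (44.1%) called in all 4 and 30 (1.04%) in none. Of 1820 regions called in all 4 knockout lists, the wild-type lists called 89.0, 94.8 and 76.5%, with 1270 (69.8%) called in all 3 and 27 (1.48%) in none.

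Called bases in core regions were compared between genotypes. Only regions called in every library of both genotypes are members, and called bases come from the same peak calls, so that a region lost in either genotype cannot enter this comparison. The median core region had 250, 285 and 204 called bases in the wild-type lists and 281.5, 259, 169 and 302 in the knockout lists. The means were 246 ± 40.6 (SD, n = 3) and 253 ± 58.6 (SD, n = 4), and the knockout range contained the wild-type range. The difference of 6.54 bases lay inside the spread of both genotypes (two-sided exact permutation p = 0.857, of which 0.0286 is the smallest that 35 splits allow), and its sign depended on single libraries, being −14.6 bases when wild-type library 3 was left out, −3 when knockout library 1 was and −9.83 when knockout library 4 was. By place, the knockout mean differed from wild-type by −3.67 bases at gene ends, 8.08 inside genes, 10.4 within 100 kb and 4.71 beyond 100 kb (exact permutation p from 0.829 to 0.943, and 0.943 for each after Benjamini-Hochberg adjustment over the 4).

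Region by region, limma on log2 called bases, centred on each library's median, called 0 of 1270 core regions at an adjusted p of 0.05 (0% higher and 0% lower in knockout), with 60 at an unadjusted p under 0.05. The smallest Benjamini-Hochberg adjusted p was 0.650, and leaving out single libraries moved it to between 0.0924, when wild-type library 1 was left out, and 0.715, when knockout library 4 was. Differences over 2-fold were fitted for 19 regions, and the median standard error was 0.29 on the log2 scale. A p that misses the threshold does not show that the genotypes call the same widths.

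The regions nearest to a difference are given as descriptions. In Patj, which encodes an apical polarity protein (chr4:98577962-98578448), wild-type lists called 113, 129 and 172 bases and knockout lists 426, 292, 377 and 442, a log2 difference of 1.46 (SE 0.32, limma adjusted p = 0.650). Near Edil3, an integrin ligand (chr13:89362323-89362853), the wild-type values were 125, 179 and 137 and the knockout values 443, 233, 335 and 437. In the opposite direction, a region in Lhfpl3 (chr5:23035512-23035866) had 313, 328 and 331 called bases in wild-type and 182, 116, 141 and 184 in knockout lists, a log2 difference of −1.10 (SE 0.27, limma adjusted p = 0.650). The genotypes did not overlap at these 3 regions, which were picked for the smallest p in each direction. The others with the smallest p lay nearest to Gpat3, Eno1b and Lrrn1, with more bases in knockout, and to Cdh12, Dmxl1, Lman1 and Enox1, with fewer.

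Core regions were spread thinly. The nearest other core region lay at a median of 383 kb, and 135 core regions (10.6%) had another within 50 kb. Among the 1484 regions called in 6 lists the same values were 419 kb and 10.2%. Among the 11536 called in 2 to 6 lists they were 59.0 kb and 44.6%. Such distances depend on how many regions a class holds, so thin spread is not particular to the core. Of the 1 Mb windows with any, 566 held 1 core region, 199 held 2 and 58 held 3. The exception was the first assembled sequence of chromosome 9, where 19 core regions lay between 3000086 and 3038227, with 6 further regions called in 2 to 6 lists. The next densest window, inside Cntn5 on chromosome 9, held 6.

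A small set of core regions had nearly the same called width in all 7 lists. Between the longest and the shortest call in a core region the median ratio was 2.43 (interquartile range 1.85 to 3.45), but in 20 regions (1.57%) it was at most 1.1 and in 31 (2.44%) at most 1.2. Among the 1484 regions called in 6 lists, the median ratio over the calling lists was 2.33. It was at most 1.1 in 7 of them (0.472%) and at most 1.2 in 20 (1.35%). The 31 core regions included 8 of the 10 core regions with the highest fold percentile and 11 of the 19 at the start of chromosome 9, and 0 lay at a gene end. Near Abcb11 (chr2:69355538-69355665), the region with the highest fold of the core (median 50.4), the wild-type lists called 128, 128 and 126 bases and the knockout lists 128, 127, 126 and 128. Near Col19a1 (chr1:24611572-24616141), the longest core region, the calls were 4563, 4562 and 4570 bases in wild-type and 4563, 4563, 4570 and 4564 in knockout lists, at a median fold of 1.98, in the lowest percentile of its lists. A region inside Chl1, an adhesion gene (chr6:103649049-103649291), had 239, 243 and 233 bases in wild-type and 242, 237, 233 and 239 in knockout lists at a median fold of 41.5. Repeat content, copy number and read mapping at these positions were not analysed here. Without the 31 regions, 16.6% of core regions lay at gene ends and 32.1% beyond 100 kb.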

How the data were processed

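The authors deposited 1 broad-peak list per library on GRCm38. Per the submitters' processing notes the tools were MACS2 and Bowtie2 2.3.5.1, with SAMtools 1.9, deepTools 3.3.0, CASAVA 1.9 and FastQC 0.11.8. Their settings were not stated. The deposited fold enrichment, a ratio, and the deposited −log10 q served to rank peaks inside 1 list or to filter them. The smallest −log10 q per list was 1.30 to 1.32. The deposited score and −log10 p were not used. No read counts were used, so depth is unknown.

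Regions were merged and placed against RefSeq gene spans (GRCm38.p6) with pandas 2.3.3, numpy 2.4.6 and SciPy 1.17.1 in Python 3.11.15. Called bases were tested with limma 3.58.1 in R 4.3.3 and by exact permutation over the 35 splits of 3 and 4 libraries. Merging was tested on simulated lists, and limma on simulated called bases. The 12 motifs were matched exactly on both strands. The labels do not say whether replicate numbers pair the libraries, which were treated as unpaired.

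Core regions, gene lists, motifs and tests were all chosen with earlier results of these data known. Named genes are L3mbtl3, those nearest the 10 core regions highest in fold percentile, those with most core regions, up to 4 per list with most core regions, up to 5 regions per direction with the smallest limma p, the 10 longest shared stretches and the 3 densest windows. All others, such as the genes with the stricter ZNF143 element, were named after their values were seen. Single-library omission, equal lists, a stricter q, other merging and other placing were tried as alternatives.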

Additional observations from a re-analysis of the deposited data

Results flagged for a closer look

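Of the 9 measures of the core compared among the 4 knockout libraries, 2 had a library far from the other three by Dixon's criterion, which chance meets in about 1 of 20 groups. They rest on 1 count, since the 942 regions that knockout library 3 lacks are those missing from its share, and do not stand as separate results. Knockout library 3 is the shortest list. It was the missing list in 942 of the regions called in 6 lists, against 10 to 94 for the other knockout libraries. It called 57.4% of the regions called in all 6 other lists, against 93.1 to 99.2% for the others, and 79.0% with lists of equal length.

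Chromosome X, which the definition of the core leaves out, held 26 regions called in all 7 lists of its 855 merged regions (3.04%), of which 5 lay at a gene end. Chromosome Y held 0 of 34.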

How the results depend on the processing

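The number of core regions was 319 when each list had to cover 50% of the region, 57 at a −log10 q of at least 5, 511 with equal lists and 1279 to 2212 when a single library was left out, the highest without knockout library 3. Gene ends held 8.77% of the 57 and 18.98% of the equal-list core, and 15.9 to 17.8% without single libraries. Places inside genes held 17.5% and 29.5%, and 32.5 to 33.9% without single libraries. Places beyond 100 kb held 57.9% of the 57, 38.0% of the equal-list core and 35.7% of the 319, and 31.0 to 32.9% without single libraries. A neighbour within 50 kb was found for 38.6% of the 57 and 7.83% with equal lists, for 10.4 to 15.5% without single libraries, and within 10 kb for 3.31% of the core. Of the 57, 17 lay at the start of chromosome 9 and 26 among the regions of nearly constant width. In every setting in which both were computed (equal lists, the stricter q and each library left out), the core held fewer gene ends and more places beyond 100 kb than regions called in fewer lists.

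The difference in called bases ran from −14.6 to 34.5 without single libraries. With the replicate number as a block it was −9.83 bases (exact permutation p = 0.75), over 3 pairs. Correlations of same-numbered libraries were −0.048, 0.025 and 0.107, and those of differently numbered libraries ran from −0.112 to 0.0937. The numbers were not taken as pairs, though pairing cannot be settled from the labels. limma called 0 regions in all 12 settings, including the replicate block (smallest adjusted p 0.743). Without wild-type library 1, wild-type library 2 or knockout library 1 the smallest adjusted p was 0.0924, 0.135 and 0.167. There were 37 to 71 regions at an unadjusted p under 0.05 over the settings. CCAAT in core windows stayed between 70.8% (without knockout library 3) and 77.9% (equal lists, against 67.4% for windows with fewer lists).

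Wide regions and long lists favour membership, the depth of each list is unknown, and called width is a coarse measure of openness.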
